A study of Mus musculus with 4 samples.

Results

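The 10 genes described here encode members of the AP-1 family of transcription factors and their close relatives: the FOS genes Fos, Fosb, Fosl1 and Fosl2, the JUN genes Jun, Junb and Jund, the stress factor Atf3, and the small MAF genes Maff and Mafk. They were chosen by gene symbol, and all 10 had a row among the 23420 genes counted. RNA with poly(A) tails was sequenced in 4 libraries of a single group, all labelled wild type, C57BL/6J, male and 12 weeks old, with no treatment and no other group. The tissue label names the whole heart, while the labels' protocols name the frozen apex of the ventricles. The libraries are called hearts 1 to 4, as numbered in the submitters' titles. Nothing in the labels says that each came from its own animal, so the spread between them may in part be technical.

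AP-1 proteins bind DNA as pairs held together by a leucine zipper. JUN proteins pair with each other, with FOS proteins or with ATF proteins, whereas FOS itself needs a partner. Fos, Fosb, Jun, Junb and Atf3 are immediate early genes, copied within minutes of growth signals, stretch or stress in heart muscle and other cells, and their messenger RNAs are short-lived. Jund is present in resting cells and in the mouse heart is known as a restraint on hypertrophy. Small MAF proteins lack an activation domain and act as partners of NFE2-related and BACH factors.

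Hearts 2 and 3 went against their label. Xist, the RNA of the inactive X chromosome of female cells, had 1806 to 1897 counts in hearts 2 and 3 against 5 to 19 in hearts 1 and 4, while 4 Y-linked genes (Ddx3y, Kdm5d, Eif2s3y and Uty) had 43 to 437 counts in hearts 1 and 4 and 0 to 1 in hearts 2 and 3. Depth was 10523709 to 15359296 gene counts, lowest in heart 3. Levels are counts per 1e6 gene counts (CPM) and a count of 0 allows up to 3 counts, or 0.195 to 0.285 CPM depending on the heart. All 10 cardiomyocyte markers searched were above 1 CPM and summed to between 120664 and 136041 CPM per heart.

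Promoter windows were matched for 9 of the 10 genes, from RefSeq on GRCm38.p6, and the entry for Fosl1 was missing. The 4 windows below are the 250 bases before the RefSeq start, shown because Fos and Jun exceeded the spread of genes of like abundance, Atf3 is an immediate early gene with the same pair of high hearts, and Fosl2 was the steadiest member. Capitals mark a match on either strand to TGACGT, the core of the cyclic AMP response element (CRE), or to its 8-base form TGACNTCA, which overlaps it.
Fos, chr12:85473640-85473889, + strand: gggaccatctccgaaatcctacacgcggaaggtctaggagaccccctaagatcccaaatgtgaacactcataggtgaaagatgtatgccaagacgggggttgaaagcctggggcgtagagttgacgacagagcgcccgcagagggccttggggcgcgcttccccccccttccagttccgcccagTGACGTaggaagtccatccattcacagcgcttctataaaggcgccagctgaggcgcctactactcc
Jun, chr4:95052223-95052472, - strand: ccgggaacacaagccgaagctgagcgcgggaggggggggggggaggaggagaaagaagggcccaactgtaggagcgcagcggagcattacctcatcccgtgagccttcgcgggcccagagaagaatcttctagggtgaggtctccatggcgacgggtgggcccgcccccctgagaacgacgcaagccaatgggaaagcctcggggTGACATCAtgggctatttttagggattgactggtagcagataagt
Atf3, chr1:191183334-191183583, - strand: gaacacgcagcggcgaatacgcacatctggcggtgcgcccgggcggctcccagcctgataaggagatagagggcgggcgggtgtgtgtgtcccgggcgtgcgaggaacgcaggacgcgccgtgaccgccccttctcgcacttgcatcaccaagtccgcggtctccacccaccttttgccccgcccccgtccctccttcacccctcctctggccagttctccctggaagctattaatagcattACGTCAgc
Fosl2, chr5:32136222-32136471, + strand: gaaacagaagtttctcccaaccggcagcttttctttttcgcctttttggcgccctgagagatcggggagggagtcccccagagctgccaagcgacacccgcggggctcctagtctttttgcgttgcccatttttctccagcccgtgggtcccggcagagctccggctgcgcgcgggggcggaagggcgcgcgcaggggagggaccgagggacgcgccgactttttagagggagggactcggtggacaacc

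The Fos window held TGACGT at 66 to 61 bases before the start, and the Atf3 window held it on the other strand at 8 to 3 bases before the start. The Jun window held TGACNTCA at 45 to 38 bases before the start, the known AP-1-like site near the start of Jun. Fosl2 had neither in this window. Among the 11 windows of the 9 genes, 3 held TGACGT and 3 held TGACNTCA, against 6.47% and 7.49% of all 32851 windows of that length. The other windows with a match were 2 of the 3 of Maff, one of the steadier members. The windows of Fosb, Junb, Jund and Mafk had neither, although Mafk had the same pair of high hearts as Atf3. The AP-1 site TGANTCA, present in 6.75% of all windows, and the CArG box bound by serum response factor, present in 1.47%, were in none of the 11. Base composition was not matched in these shares. Median G and C content was 52.4% over all windows. The 4 windows shown had 58.4% (Fos), 61.2% (Jun), 65.2% (Atf3) and 64.4% (Fosl2). Jund, at 47.6%, and 1 Maff window, at 48%, lay below the median. The windows depend on the start chosen: the RefSeq start of Jund lay 1210 bases before the start of the gene in GENCODE M21, and those of Fosl2 and Atf3 lay 671 and 34706 bases inside the gene's outermost start. A match describes letters only, and no match says only that these letters are not in this window.

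Among the FOS genes, Fos split into a high and a low pair of hearts, Fosl2 was steady, Fosb was low in heart 2 and Fosl1 was at the floor. Fos, a classic immediate early gene (ENSMUSG00000021250.13, GENCODE M21 on GRCm38, chromosome 12, 85473890 to 85477273), had 17.6, 2.37, 3.14 and 14.8 CPM in hearts 1 to 4, from 253, 33, 33 and 228 counts. Hearts 1 and 4 were high and hearts 2 and 3 low, with no overlap of the exact Poisson limits of 95%, which ran from 13.0 to 16.9 CPM in heart 4 and from 2.16 to 4.40 CPM in heart 3. These limits cover counting error only. The highest heart stood 7.40-fold above the lowest, and the mean was 9.48 ± 7.85 CPM (SD, n = 4).

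Fosl2, which encodes FRA2, had 33.0, 33.4, 36.8 and 37.7 CPM in hearts 1 to 4. Its hearts lay within a factor of 1.14 and their counting limits overlapped. Its coefficient of variation was 6.75%, against a median of 9.60% over all 12360 genes tested. Fosb, whose product resembles FOS, had 3.05, 0.287, 2.09 and 2.08 CPM, from 44, 4, 22 and 32 counts. Heart 2 alone was low, and without it the 10.6-fold gap between highest and lowest heart shrank to 1.47-fold. Fosl1, which encodes FRA1, had 1 count in heart 2 and 0 in hearts 1, 3 and 4, at or under the limit that a count of 0 allows. In GENCODE M21, 57.2% of the exon bases of Fosl1 are shared with Ccdc85b on the other strand, and these libraries do not keep the strand.

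Jun, the founding JUN gene (ENSMUSG00000052684.4, chromosome 4, 95049034 to 95052222, a single exon), had the same high and low hearts as Fos over a narrower range. It had 86.5, 41.0, 40.8 and 80.5 CPM in hearts 1 to 4, from 1246, 571, 429 and 1236 counts. The highest heart lay 2.12-fold above the lowest, and no counting limit of hearts 1 and 4 (76.0 CPM and up) reached those of hearts 2 and 3 (44.8 CPM and below). Junb, a JUN protein that can restrain Jun, had 21.9, 13.6, 8.36 and 13.6 CPM. Its order differed: heart 1 was high, heart 3 low, and hearts 2 and 4 were level.

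Jund had 66.6, 49.7, 52.6 and 51.6 CPM. Heart 1 alone was high, and without heart 1 the other hearts lay within a factor of 1.06, with a coefficient of variation of 2.90% in place of 14.0%. In GENCODE M21, 52.6% of the exon bases of Jund overlap the antisense gene Gm11175. Since strand was not kept, reads of both cannot be told apart and the level of Jund is uncertain. It may be too high if reads of Gm11175 were counted, or too low if shared reads were set aside as ambiguous. The shared part was smaller, 4.33 to 7.52% of exon bases, for Mafk, Jun and Junb.

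Atf3, a stress-induced factor that often represses, had 3.89, 1.44, 2.47 and 3.45 CPM, from 56, 20, 26 and 53 counts. Hearts 1 and 4 were again the higher pair, but the counting limits of heart 3 (1.61 to 3.62 CPM) overlapped those of hearts 1 and 4. The small MAF genes had a narrower fold range than Atf3. Mafk had 65.2, 49.1, 52.2 and 66.6 CPM, with hearts 1 and 4 above hearts 2 and 3 by a factor of 1.36 at most. Maff had 6.66, 5.03, 7.89 and 7.03 CPM, lowest in heart 2 and highest in heart 3.

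**Figure D1:**
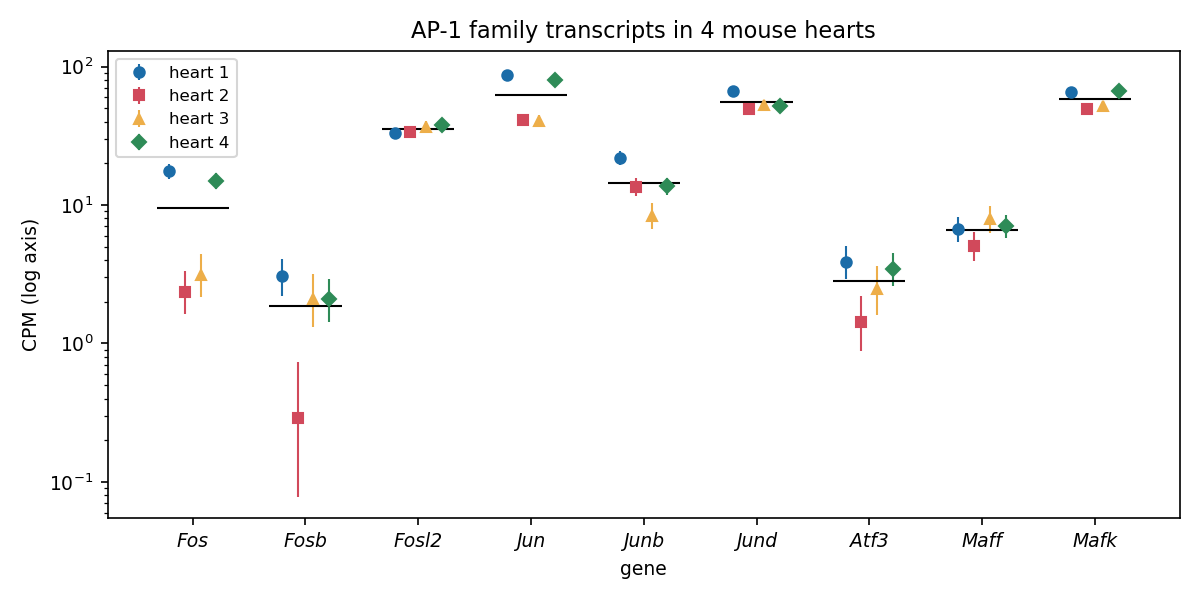
CPM on a log axis of 9 members in each heart, with exact Poisson limits of 95% as error bars and the mean of 4 hearts as a black line. Fos and Jun split into hearts 1 and 4 above hearts 2 and 3, Fosl2 lies flat near 35.2 CPM, and the low point of Fosb is heart 2 at 0.287 CPM. Fosl1, with 1 count in all, is not drawn.

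The spread of each gene between hearts was tested against genes of similar abundance. In edgeR's quasi-likelihood fit with an intercept only, each gene's variance was divided by the fitted trend, and Benjamini-Hochberg adjustment ran over the 12360 genes whose mean reached 1 CPM. Of the 10 members, 9 reached that level. Fos (variance ratio 56.5, adjusted p = 0.0118) and Jun (variance ratio 34.2, adjusted p = 0.0298) were called more variable, 2 of 9, against 0.445% of all genes tested (55 of 12360). At an unadjusted p under 0.05 the count was 6 of 9, with Fosb, Junb, Atf3 and Mafk added, against 6% of all genes. The median log2 variance ratio was 2.19 over the 9 members and -0.23 over all genes, and the median coefficient of variation was 38.8% against 9.60%.

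The other 7 members were not called. Junb had a variance ratio of 14.2 (adjusted p = 0.170) and Fosb of 10.1 (adjusted p = 0.324), both in edgeR. Mafk (4.56), Atf3 (4.31) and Jund (3.81) had variance ratios above the trend with edgeR adjusted p of 0.780 to 0.878. Maff, at 1.75, and Fosl2, at 0.798, lay near it (adjusted p = 0.995 for both, edgeR).

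The call of Jun was lost without heart 1 (edgeR adjusted p = 0.0760), without heart 3 (0.0627) and among genes of at least 5 CPM (0.0549), while Fos was called whichever heart was left out (0.00786 to 0.0254). With edgeR's ordinary prior in place of the robust one neither was called (adjusted p = 0.0897 for Fos and 0.169 for Jun; 0.0809% of all genes called). In hearts 1 and 4 alone, whose sex-linked transcripts matched the label, the variance ratios were 2.86 and 2.05 (edgeR adjusted p = 0.946 and 0.964), with 0.0891% of all genes called. Both are high hearts of Fos and Jun, so this setting leaves out the low pair and cannot say what the split follows. Junb went the other way: without heart 2 it was called (adjusted p = 0.0398, edgeR), and in hearts 1 and 4 alone, at 21.9 and 13.6 CPM, it was the only called member (adjusted p = 0.0499).

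**Figure D2:**
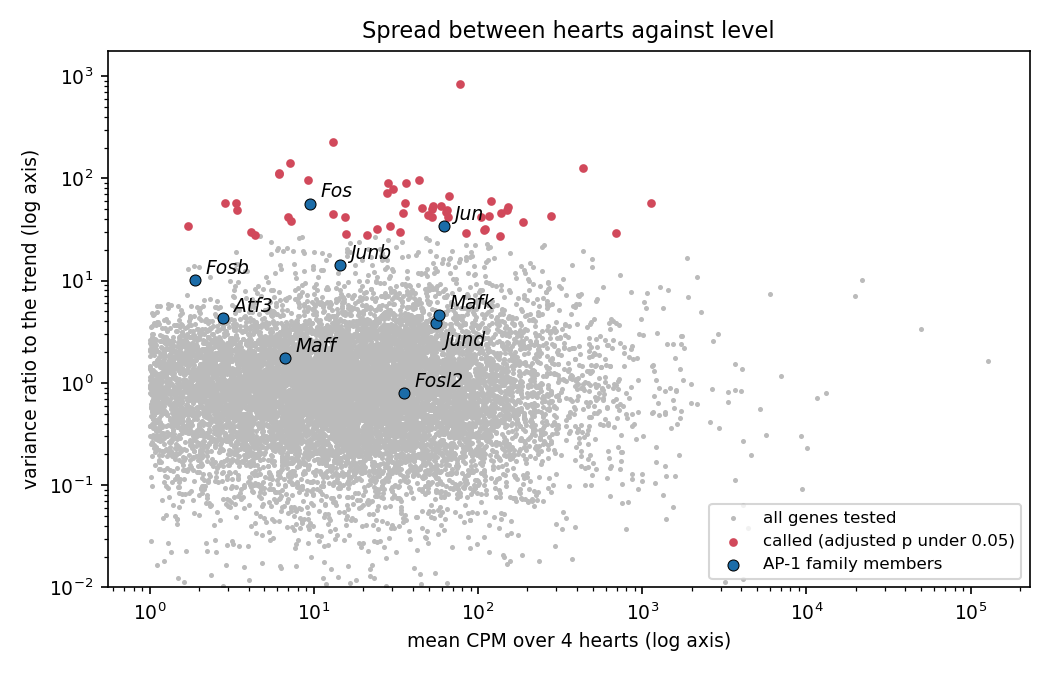
Variance ratio to the fitted trend against mean CPM, both on log axes, with 1 point per gene tested. Fos at 56.5 and Jun at 34.2 lie among the 55 called genes, Junb at 14.2 and Fosb at 10.1 below them with other uncalled genes in between, and Fosl2 at 0.798 inside the bulk; points under 0.01 are outside the axis.

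Ordered by heart, Fos, Jun, Junb, Atf3 and Mafk had both hearts 1 and 4 above both hearts 2 and 3, 5 of 9 members against 23.7% of all genes tested. None of the 9 had the opposite order, seen in 15.6% of all genes. For Junb this rested on 13.61 against 13.58 CPM, less than counting error, and with trimmed mean of M-values (TMM) factors it dropped out, leaving 4 of 9 against 20.5% of all genes (18.3% had the opposite order). Hearts 2 and 3 are also the 2 with high Xist, so these orders cannot be told apart from whatever else separates the hearts. Heart 2 was the lowest for 6 of the 9 members, against 30.7% of all genes. Fos, Fosb, Jun, Junb, Jund and Atf3 were highest in heart 1, 6 of 9 members against 21.6% of all genes.

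**Figure D3:**
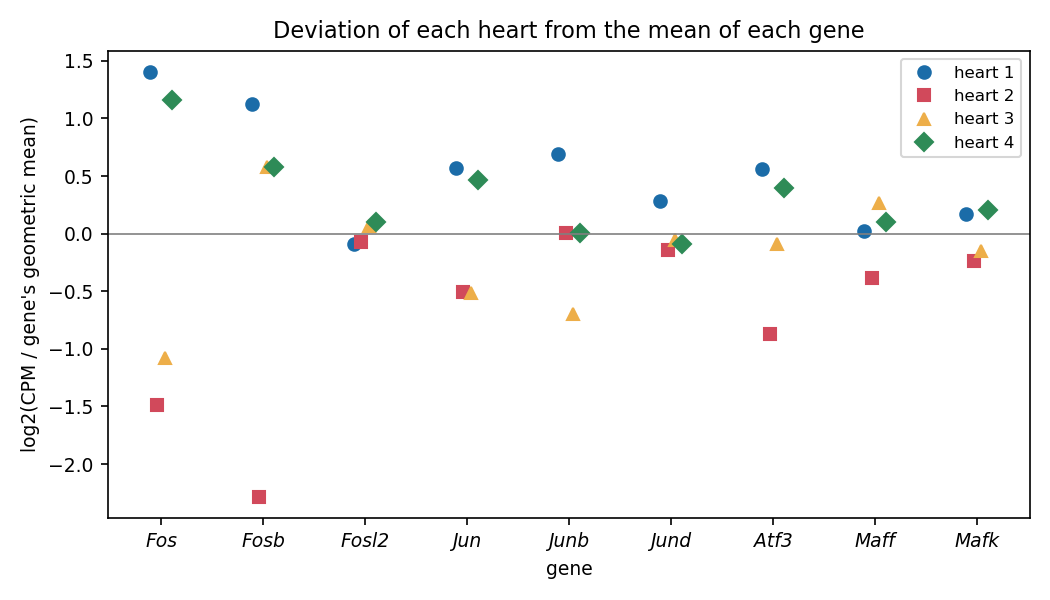
Log2 of CPM over each gene's geometric mean, 1 marker per heart, for 9 members. Fos reaches from -1.48 in heart 2 to 1.40 in heart 1, Jun from -0.52 to 0.57, and all 4 hearts of Fosl2 stay within 0.10 of zero.

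The make-up of each family differed between hearts. Per kilobase of exon, Fos made up 65.7, 22.2, 24.4 and 59.9% of the FOS gene level in hearts 1 to 4, and Fosl2 30.0, 76.0, 69.5 and 37.0%. Per kilobase, Fos was thus the leading FOS transcript in hearts 1 and 4 and Fosl2 in hearts 2 and 3. This rests on the division by length: in plain counts Fos had 0.533, 0.0710, 0.0853 and 0.394 counts for each count of Fosl2. Among the JUN genes Jund led in each heart, at 52.2, 61.4, 65.8 and 49.8%. These shares rest on the uncertain level of Jund and on the division by length: in plain counts Jun had 1.30, 0.825, 0.774 and 1.56 counts for each count of Jund. Jun took 35.4, 26.5, 26.6 and 40.6%, and Junb between 7.57 and 12.4%. The 2 FOS genes of the immediate early class did not keep a fixed ratio: Fos had 5.75, 8.25, 1.5 and 7.13 counts for each count of Fosb in hearts 1 to 4, where heart 2 rests on 4 counts of Fosb.

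**Figure D4:**
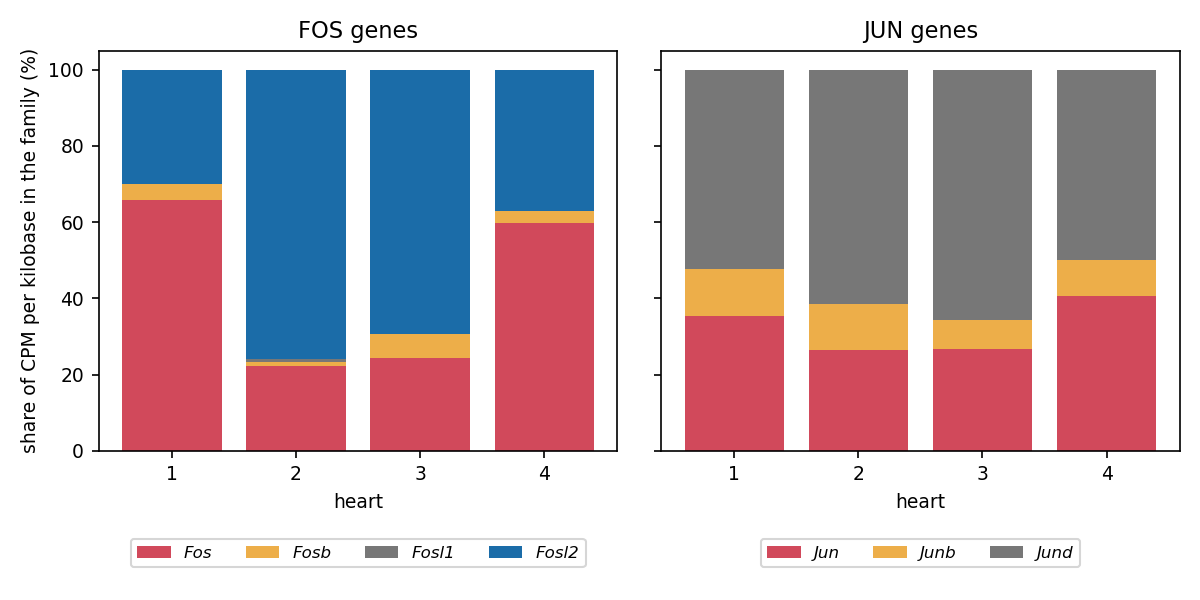
Share of each gene in the summed CPM per kilobase of its family, as stacked bars for hearts 1 to 4, FOS genes left and JUN genes right. Fos fills 59.9 to 65.7% of the FOS bars of hearts 1 and 4 and 22.2 to 24.4% of those of hearts 2 and 3; the grey sliver in heart 2 is the single count of Fosl1.

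Levels of different members were ranked per kilobase of exon. Jund stood highest at 33.1 ± 4.64 CPM per kilobase (SD, n = 4), followed by Jun at 19.5 ± 7.75, Mafk at 14.9 ± 2.29 and Junb at 6.24 ± 2.42. Below them came Fos at 4.03 ± 3.34, Fosl2 at 3.64 ± 0.246, Maff at 2.56 ± 0.462, Atf3 at 1.30 ± 0.506 and Fosb at 0.301 ± 0.185 CPM per kilobase. Fosl1 was at the floor. The first place of Jund rests on a level that may be too high or too low, given its overlap with the antisense gene Gm11175. Without the division by length the mean log2 ratio of Jund to Jun was -0.093. Of the 9 neighbour pairs in this order, 6 kept it in all 4 hearts without overlap: Jund over Jun, Mafk over Junb, Fosl2 over Maff, Maff over Atf3, Atf3 over Fosb and Fosb over Fosl1. The order was set by the means of these same 4 hearts, so the direction of each pair was favoured in advance. The log2 ratio of each pair, with 0.5 added to each count, was tested by a two-sided exact permutation test that flips signs. Of the 6 pairs, 5 had the smallest exact permutation p that 4 hearts can give, p = 0.13 (0.225 when adjusted by Benjamini-Hochberg over the 9 pairs), and 0.05 was out of reach. For Fosb over Fosl1 the added 0.5 turned the ratio just below zero in heart 2 (-0.034), where 4 counts stood against 1 (exact permutation p = 0.25).

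The other 3 pairs overlapped between hearts. Jun exceeded Mafk in 3 of 4 hearts (log2 ratio 0.31 ± 0.38, SD, n = 4, exact permutation p = 0.375), and the sign turned to -0.03 when the longest coding transcript gave the length. Junb exceeded Fos in 3 of 4 (exact permutation p = 0.25). Fos and Fosl2 traded places: Fos was higher in hearts 1 and 4 and lower in hearts 2 and 3, with a mean log2 ratio of -0.35 ± 1.48 (SD, n = 4, exact permutation p = 0.75). In counts without length Fosl2 exceeded Fos in every heart, with a mean log2 ratio of -2.39.

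Other genes around AP-1 were taken from 4 lists, of which 104 genes were tested. Of these, 44 (42.3%) had hearts 1 and 4 both above hearts 2 and 3, against 23.7% of all genes tested. The opposite order was seen in 13 (12.5%), against 15.6%. By list, hearts 1 and 4 were both above hearts 2 and 3 in 17 of 31 other immediate early genes and 13 of 21 other bZIP partners. The same held for 9 of 22 textbook AP-1 target genes and 5 of 30 upstream kinases and serum response factors. Of the 31 other immediate early genes tested, 4 were called more variable in edgeR, against 0.445% of all genes tested. The called genes were Zfp36, a factor that marks AU-rich messenger RNAs for decay, the MAP kinase phosphatase Dusp1, the growth inhibitor Btg2 and the clock gene Per1. Zfp36 had 78.6, 24.3, 40.3 and 70.6 CPM in hearts 1 to 4 (edgeR adjusted p = 0.0128) and Per1 201, 73.4, 138 and 196 CPM (adjusted p = 0.0132, edgeR). Rhob, a small GTPase and one of the most abundant of the list, had 168, 126, 144 and 152 CPM and was not called (adjusted p = 0.893, edgeR). Over the list, the log2 variance ratio had a median of 2.83.

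Of 22 textbook AP-1 target genes tested, 5 were called in edgeR, against 0.445% of all genes tested. Among the 5 were the metallothioneins Mt1 and Mt2, the matrix growth factor Ctgf and the natriuretic peptide Nppb. Mt2 had 43.7, 8.76, 17.7 and 41.3 CPM (edgeR adjusted p = 0.00774), and Ctgf had 157, 50.4, 126 and 145 CPM (adjusted p = 0.0118, edgeR). Nppa, the other natriuretic peptide of the list, had 138, 131, 151 and 139 CPM and was not called (adjusted p = 0.995, edgeR). Vegfa, an angiogenic growth factor, ran in the opposite order at 266, 362, 347 and 267 CPM, with edgeR adjusted p = 0.391. These genes answer to other factors as well, and no binding was measured here. The log2 variance ratio had a median of 1.43 over the list, against -0.23 over all genes tested.

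Among 21 other tested members of the bZIP class, Cebpb was the only call, where 0.445% of all genes tested were called. Cebpb had 32.5, 12.0, 14.2 and 25.3 CPM (edgeR adjusted p = 0.0489). The most abundant, Nfe2l1, which pairs with small MAF proteins, had 886, 898, 809 and 885 CPM and was not called (adjusted p = 0.995, edgeR). Of 30 upstream kinases and serum response factors tested, edgeR called 0, with 2 at an unadjusted p under 0.05. Over all genes tested these shares were 0.445% and 6%. Serum response factor itself, Srf, had 171, 178, 171 and 163 CPM, and the JNK kinase Map2k7 had 100.5, 93.8, 98.0 and 98.1 CPM. The median log2 variance ratio of that list was 0.06. All 10 genes called in the 4 lists were lowest in heart 2 and higher in hearts 1 and 4 than in hearts 2 and 3. Over all genes tested these orders were seen in 30.7% and 23.7%. The 10 were picked by a large spread, and their order was not compared with that of all 55 called genes. For Nppb the lowest place rested on 75.7 CPM in heart 2 against 76.2 CPM in heart 3.

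**Figure D5:**
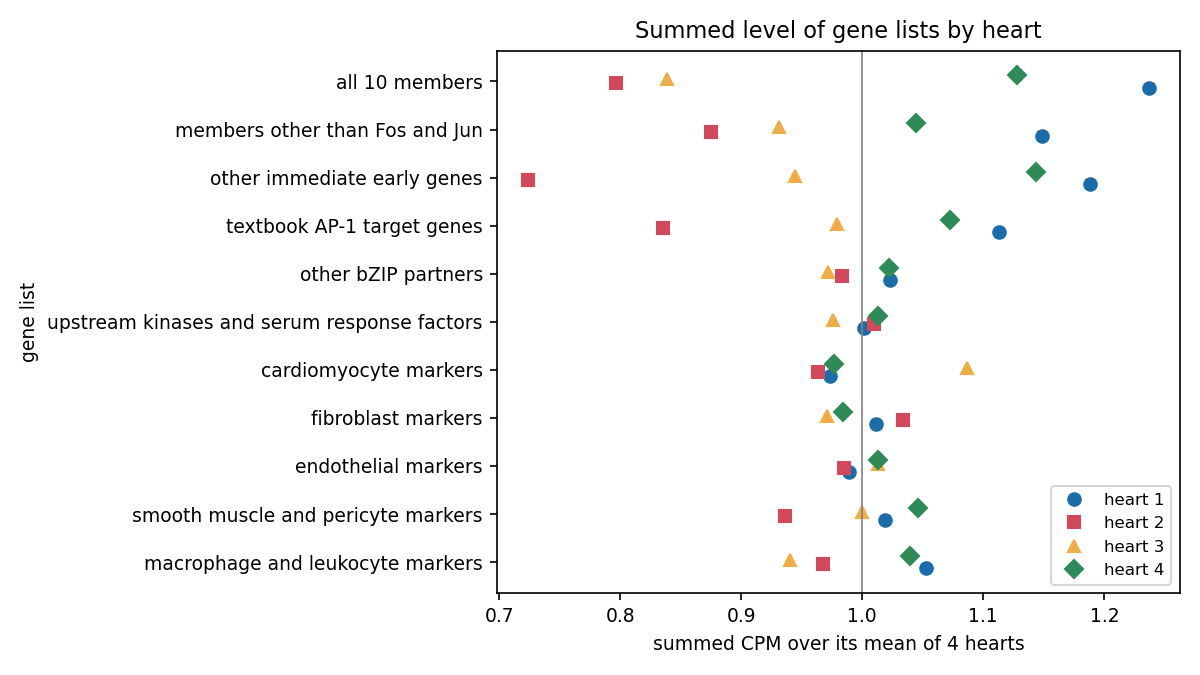
Summed CPM of each gene list in each heart over the mean of its 4 hearts. The 10 members sum to 304 CPM in heart 1 and 196 in heart 2, and other immediate early genes spread about as widely. The sums of upstream kinases, bZIP partners and most of the cell type markers drawn stay close to 1. Red cell and adipocyte markers, whose highest hearts stood 2.33- and 4.56-fold above the lowest, are not drawn.

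The summed level of the 10 members was 304, 196, 206 and 277 CPM in hearts 1 to 4. Without Fos and Jun the other 8 summed to 200.2, 153, 162 and 182 CPM, in the same order of hearts. Summed markers of the main cell types moved less. Sums per heart ran from 2336 to 2485 CPM for 8 fibroblast markers, 1303 to 1340 CPM for 8 endothelial markers, 806 to 901 CPM for 8 smooth muscle and pericyte markers, and 313 to 351 CPM for 13 macrophage and leukocyte markers. Some single markers moved more than their sums. Of 10 cardiomyocyte markers 3, of 8 endothelial markers 3 and of 10 tested macrophage and leukocyte markers 5 had hearts 1 and 4 both above hearts 2 and 3. Over all genes tested this share was 23.7%. Of 8 smooth muscle and pericyte markers, 4 had hearts 1 and 4 both above hearts 2 and 3. Myh11, among the 4, had 117, 88.4, 82.5 and 117 CPM, but Kcnj8, also among them, had 39.1, 38.1, 37.9 and 39.6 CPM. Of 8 fibroblast markers 1 did, Dcn at 254, 180, 246 and 270 CPM, while Col3a1 had 263, 325, 213 and 260 CPM. Gsn made up 1497 of the mean fibroblast sum of 2405 CPM. At an unadjusted edgeR p under 0.05 were 3 of the 8 smooth muscle and pericyte markers and 2 of the 8 fibroblast markers, against 6% of all genes tested. Macrophage and leukocyte, and smooth muscle and pericyte, sums were higher in hearts 1 and 4, as were the members. The sum of 5 adipocyte markers ran the other way, at 1.67, 6.90, 7.60 and 2.28 CPM, with Adipoq at 0 counts in heart 1 and Lep and Retn at 0 to 4 counts throughout. Cfd alone, at 1.32, 5.24, 5.32 and 1.63 CPM, made up 3.38 of the mean adipocyte sum of 4.61 CPM. Red cell markers were lowest in heart 3 (7.89 CPM against 16.5 to 18.4 CPM), and Alas2 made up 14.0 of their mean sum of 15.2 CPM. The 4 haemoglobin entries were at 0 in all hearts, and whether their reads were lost in counting was not tested. The part of these cells in the spread of the members was not tested. In RNA from whole tissue, fewer cells of a type and less RNA per cell cannot be told apart.

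The genes whose profile over the 4 hearts lay closest to that of Fos and Jun were sought by Euclidean distance between log2(CPM + 0.5) profiles centred on each gene's mean, among 9610 other genes of at least 5 CPM. For Fos these were, from the nearest, the complement gene C7, the alcohol dehydrogenase Adh1, Fam107a, the enkephalin precursor Penk and Mt2, at distances of 0.61 to 0.79. C7 had 12.8, 2.51, 1.62 and 10.9 CPM. Jun would stand 29th by this measure, and Atf3 47th, since their range was narrower. For Jun the nearest were the pseudogene Pisd-ps1, Nppb, the ceramidase Acer2, the survival gene Bcl2l1 and Rgcc, at distances of 0.06 to 0.22. Nppb had 158, 75.7, 76.2 and 156 CPM. Among the members Atf3 stood 81st, Mafk 230th and Junb 349th, while Fos, with its wider range, stood 9336th. With 4 hearts, many genes share a profile of 2 high and 2 low hearts, and likeness here is a description.

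The 3' untranslated regions of the members differed in their AU-rich pentamers. The pentamer ATTTA, the core of AU-rich elements that speed messenger RNA decay, was counted on the sense strand in 1 coding transcript per gene of GENCODE M21. All 10 members had at least 1, against 67.5% of 11374 tested genes with such a region. Per kilobase the median was 2.20 in the members and 1.21 in tested genes. Fos had 4 in 815 bases, or 4.91 per kilobase, a density reached by 6.23% of tested genes, and Junb 2 in 485 bases (4.12 per kilobase). Jun had 3.24 per kilobase. The densities of Junb and Jun were reached by 9.43 and 16.4% of tested genes, and those of Maff and Atf3 by 16.1 and 25.1%. For Jund, Fosl2, Mafk, Fosl1 and Fosb this share was 36.2 to 65.5%. Fosl2, the steadiest member, had the most, 8 in 4653 bases, but 1.72 per kilobase, and Fosb, 1 in 2145 bases, was the least dense at 0.466 per kilobase.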

How the data were processed

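Polyadenylated RNA was sequenced from one end without keeping strand, per the labels' protocols. The values deposited by the authors are raw read counts for each gene symbol. The mm10 build, HTSeq, TopHat2 2.0.10, TopHat, Bowtie2, edgeR and DESeq are listed in the submitters' processing notes with no roles. How reads were counted, and over which annotation, is not given in the sources used. The 5 rows that name no gene, 8.96 to 9.30% of listed reads, were left out.

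CPM were computed over all gene counts. The spread test used edgeR 4.0.16 in R 4.3.3 (intercept only, TMM factors, trended dispersion, robust prior). Each quasi-dispersion over its trend was referred to the upper tail of F with 3 and 7.43 degrees of freedom (residual, prior), for genes of at least 1 CPM on average. It was tested on simulated data first. Alternatives were other scaling, filters and priors, limma 3.58.1, DESeq2 1.42.0 and left-out libraries. Members, lists and tests were chosen with earlier results of these data known. Named genes were all members, up to 5 called and the 3 most abundant genes of each list, and the 5 nearest profiles of each called member; others were chosen after their values were seen. A gene that this rule names is not reported here. Exon lengths and positions are from GENCODE M21 (GRCm38, the assembly of mm10).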

Additional observations from a re-analysis of the deposited data

Results flagged for a closer look

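In 72 sets of 4 hearts checked for a single value far from the rest, 6 were found by Dixon's ratio. Chance gives about 1 in 20, but the sets are not independent: 2 of the 6 rest on the single count of Fosl1, for which the ratio is 1 by construction, and the Maff and Mafk shares are complements. Heart 2 had the only count of Fosl1, 0.0718 CPM, which also makes its share of the FOS genes there (0.778%) stand alone. Heart 3 stood apart in the make-up of the small MAF genes, with Maff at 18.5% and Mafk at 81.5% of their summed level per kilobase, against 13.3 to 13.7% for Maff in the other hearts. In heart 3 the 10 cardiomyocyte markers summed to 136041 CPM, above the other hearts, and Nfe2l1 was low at 809 CPM. The markers did not all move together. Myh6 (56973 CPM against 46667 to 48453) and Ttn (23890 against 17208 to 19878) were highest in heart 3. Mb (12361 CPM) and Myl3 (3813 CPM) were lowest there. Heart 3 was also the library of least depth, and the part of depth in these values was not tested.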

How the results depend on the processing

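The count of members called more variable was 2, and was 2 again (Fos and Jun each time) with DESeq2 or no scaling factors, without Rn45s in the total, with limma and as dispersion outliers of DESeq2. Without a filter on low counts it was 4 (Fos, Jun, Fosb and Junb). It was 1 among genes of at least 5 CPM, 0 with edgeR's prior not robust (4 at an unadjusted p under 0.05), 1 in libraries 1 and 4 only, and 1 to 3 with 1 heart left out. For all genes the count was 55, with 258 under no filter, 10 with the prior not robust, 129 as DESeq2 outliers, 11 in libraries 1 and 4 only and 39 to 69 with 1 heart left out. Of the genes in the 4 lists 10 were called, with 22 under no filter, 0 with edgeR's prior not robust (31 at an unadjusted p under 0.05), 0 in libraries 1 and 4 only (11 at an unadjusted p under 0.05) and 8 to 10 with 1 heart left out. The cause of these shifts was not tested, beyond fewer libraries in the last settings. In the order of levels, Jund over Jun turned to a log2 ratio of -0.093 with no length and Jun over Mafk to -0.025 by the longest transcript, and Fos over Fosl2 ran from -0.85 to 0.11 with 1 heart left out, above zero without heart 2 (0.11) and without heart 3 (0.026), and was -0.76 by the longest transcript and -2.39 with no length. Mean levels moved by over 1 SD in 2 of 80 settings, both without Rn45s: Fosl2 to 40.3 and Jund to 63.2 CPM. No paired analysis was possible because there is a single group. Depth limits Fosl1, Fosb and Atf3 most.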

Other observations

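Of the 104 tested genes of the lists around AP-1, 13 ran against Fos and Jun, being lower in both hearts 1 and 4 than in hearts 2 and 3. This is 12.5%, against 15.6% of all genes tested. Those named here were chosen after their values were seen, apart from Vegfa, given above. Map3k1, a kinase that feeds the JNK pathway, had 27.9, 38.7, 40.6 and 29.9 CPM in hearts 1 to 4 (edgeR adjusted p = 0.580). Klf10, a Kruppel-like factor induced early by TGF-beta, had 17.0, 20.8, 26.8 and 16.0 CPM (adjusted p = 0.469, edgeR). Atf5, a bZIP factor of the mitochondrial stress response, had 82.0, 95.2, 103 and 75.1 CPM (adjusted p = 0.642, edgeR). These 3 and Vegfa were not called.

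Egr1, the immediate early zinc finger gene, had hearts 1 and 4 above hearts 2 and 3 as Fos did, but with a narrow gap to heart 3, as seen after its values were known. It had 60.9, 33.8, 56.3 and 60.9 CPM, so heart 3 stood near hearts 1 and 4 and heart 2 alone was low. Fos had 0.288, 0.0702, 0.0556 and 0.244 counts for each count of Egr1 in hearts 1 to 4.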
